A study of Rattus norvegicus with 6 samples.

Results

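The miRNAs described here are those that purified adult rat cardiomyocytes carried, as measured in the 3 sets of PCR values titled Myocyte 1, Myocyte 2 and Myocyte 3. Members were all mouse-named (mmu) and rat-named (rno) miRNA assays that gave a signal in all 3 sets, which was the case for 196 of the 375 miRNA assays on the card, or 52.3%. The cells came from hearts of Wistar-Kyoto rats, an inbred strain with normal blood pressure, aged 2 months by the labels. Males are named in the paper, which gives the age as a range of weeks. No allele or agent other than the culture medium is named in the labels. The paper describes these myocytes as freshly isolated, whereas the deposited growth protocol gives a culture of 2 weeks in mitogen-rich medium, and the Ct values cannot settle which of the descriptions is right. The series also holds 3 sets from cells that grew out of myocyte cultures, which were not used here.

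After reverse transcription and pre-amplification, the RNA was measured on TaqMan cards of 384 wells, with a PCR assay for a single small RNA in each well. The deposited values are Ct values, that is, the PCR cycle in which fluorescence rose past a threshold, and an earlier Ct stands for more template. A well that stayed silent up to cycle 40 was read as no signal. The level used throughout is the mean Ct of the 4 wells of U6, a small nuclear RNA of the splicing machinery, minus the Ct of the miRNA, so that it is a log2 value relative to U6 in the same set. A level of 0 is the level of U6, and a lower value means less of the miRNA.

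A signal was present for 212 miRNA assays in Myocyte 1, for 203 in Myocyte 2 and for 203 in Myocyte 3. Myocyte 2 and Myocyte 3 agreed on signal or no signal in all 375 assays, and every one of their 203 detected assays came later in Myocyte 3, by a median of 0.178 cycles. They were therefore treated as repeated readings of a single card, and their mean was used as 1 sample beside Myocyte 1, giving n = 2. The SD given with a value is the spread over these 2 samples. The methods give 2 biological and 2 technical repeats, while the legend of the paper's miRNA figure gives n = 3. Neither the paper nor the labels say which sets these are or whether they came from separate animals. This spread may therefore be technical. The mean Ct of U6 was 14.7, 14.9 and 15.1 in the sets Myocyte 1 to 3, with an SD over the 4 wells of 0.146, 0.304 and 0.297 cycles. The plant control ath-miR159a and the small nucleolar RNA snoRNA202 gave no signal in any set.

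miRNAs are short RNAs cut from hairpin precursors, and they hold down the translation and the stability of mRNAs that pair with their seed, the bases from 2 to 8 counted from the 5′ end. miRNAs with the same seed form a family that reads largely the same target sites. In heart and skeletal muscle, miR-1 and miR-133 are made from shared precursors under the control of the muscle transcription factors SRF and MEF2, while miR-208a, miR-208b and miR-499 lie inside the genes of myosin heavy chains and are made together with them. The miRNAs of the miR-30, miR-29, miR-26, miR-24 and let-7 groups are found in most adult tissues.

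The mature sequences below belong to the miRNAs that held most of the signal, and to the myosin-encoded miRNAs of heart muscle. They are the rat entries of RefSeq in the assembly GRCr8, with the seed in capitals, and they matched 18 of the 20 highest assays by name. The card names most of its assays after mouse miRNAs and the files do not hold the sequence that an assay reads, so an entry shows the rat miRNA of that name. miR-30b and miR-328 were also among the 20 highest.
miR-133a-3p: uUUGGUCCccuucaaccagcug
miR-133b-3p: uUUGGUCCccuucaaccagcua
miR-1-3p: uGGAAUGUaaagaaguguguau
miR-1b: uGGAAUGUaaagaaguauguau
miR-30c-5p: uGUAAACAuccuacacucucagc
miR-30a-5p: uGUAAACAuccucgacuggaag
miR-30e-5p: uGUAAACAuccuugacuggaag
miR-24-3p: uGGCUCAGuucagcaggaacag
miR-145-5p: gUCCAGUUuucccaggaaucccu
miR-29a-3p: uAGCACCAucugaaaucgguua
miR-29c-3p: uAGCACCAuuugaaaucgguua
miR-191a-5p: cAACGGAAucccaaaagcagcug
miR-26a-5p: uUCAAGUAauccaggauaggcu
let-7e-5p: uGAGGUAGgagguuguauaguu
miR-499-5p: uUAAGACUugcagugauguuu
miR-208a-3p: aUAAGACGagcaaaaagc
miR-208b-3p: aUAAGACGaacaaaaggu
The miR-133 seed UUGGUCC was shared by both miR-133 sequences, the miR-1 seed GGAAUGU by both miR-1 sequences and the miR-30 seed GUAAACA by the 3 miR-30 sequences shown. Counted from the 5′ end, miR-133b differed from miR-133a by G22A, its last base, and miR-1b differed from miR-1 by G17A. miR-30e differed from miR-30a by C13U, miR-29c from miR-29a by C10U, and miR-208b from miR-208a by G10A, A16G and C18U. None of these differences lies in the seed. miR-133a lies on the minus strand at chr18:2157886-2157907 and miR-1 on the same strand at chr18:2160339-2160360, both within the span of Mib1, a gene of the opposite strand. miR-208a lies at chr15:32395568-32395585 and miR-208b at chr15:32421648-32421665, both on the minus strand, and miR-499 at chr3:164570616-164570636 on the plus strand.

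The myocytes held very few miRNAs at high level and a long tail of weak ones. The mean level ran from 3.80 for miR-133a down to -20.62 for miR-205, a range of 24.42 log2 units, with a median of -9.61. Only 5 miRNAs lay above U6, and 36 lay up to 5 log2 units below it. A further 62 lay 5 to 10 units below U6, 57 lay 10 to 15 units below it, and 36 lay more than 15 units below it. miR-133a was 10850 times higher than the median member, if the template doubles in each cycle and all assays amplify alike. Levels of different assays are compared on that assumption throughout, and the effect of a lower amplification is given with the limits at the end.

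**Figure D1:**
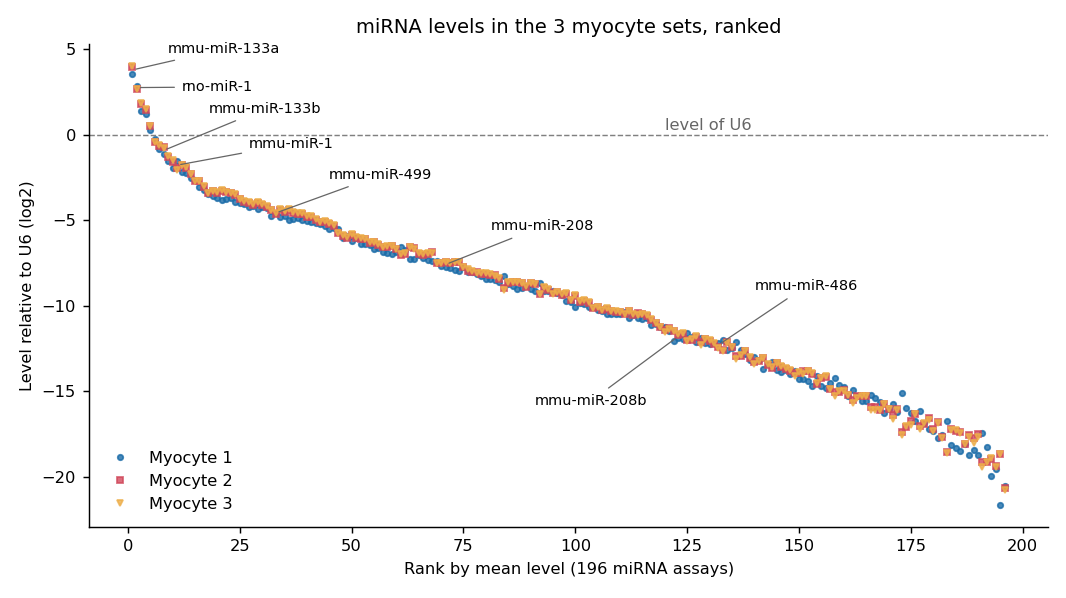
Level relative to U6 (log2, vertical axis) of the 196 miRNA assays with signal in all 3 sets, by rank of the mean level (horizontal axis), with 1 symbol per set. The 8 assays of the striated muscle list are named and run from 3.80 for mmu-miR-133a to -12.28 for mmu-miR-486, and the sets lie close together except among the lowest miRNAs.

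The share of the summed linear signal shows how uneven the pool was, and it does not depend on the normalizer. The highest miRNA, miR-133a, held 38.7%, 44.1% and 44.1% of the sum in Myocyte 1, 2 and 3, or 41.4% ± 3.79 (SD, n = 2). The 2 highest together held 61.8% ± 0.181, the 5 highest 82.3% ± 0.564 and the 10 highest 90.2% ± 0.190 (SD, n = 2). The number of miRNAs needed for 90% of the sum was 10 in each of the 3 sets, and 48 miRNAs held 99% of the mean shares. The 93 miRNAs at least 10 log2 units below U6 held 0.0522% in all. Most of the detected species thus contributed almost nothing to the sum.

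**Figure D2:**
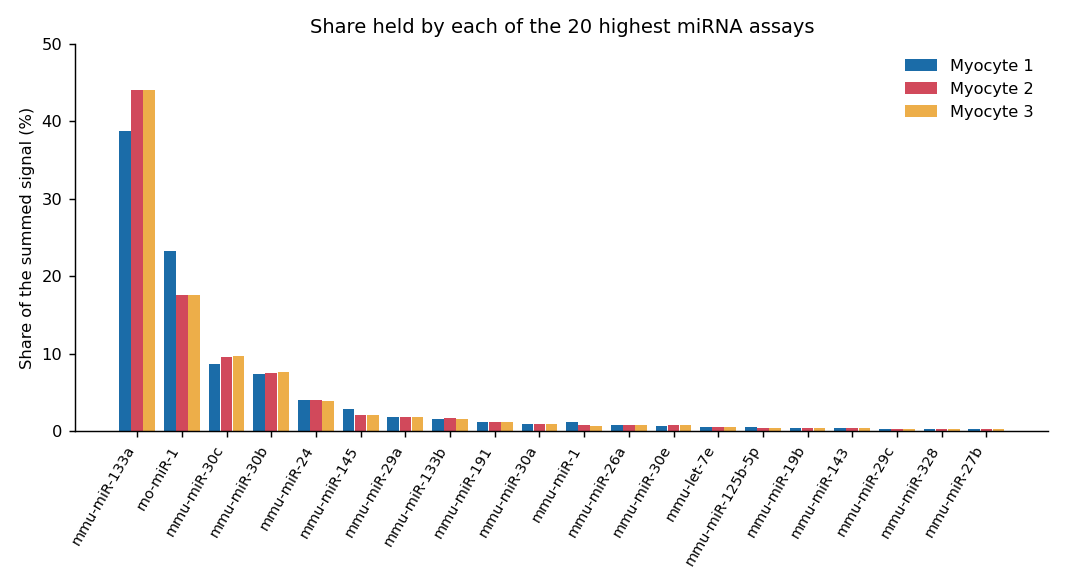
Share of the summed linear signal (percent, vertical axis, from 0) held by each of the 20 highest miRNA assays, with 1 bar per set. The bars fall from between 38.7% and 44.1% for mmu-miR-133a to 0.257% on average for mmu-miR-27b.

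The first and second places went to the paired muscle miRNAs. miR-133a, which in mice restrains myocyte proliferation and represses smooth muscle genes in the heart, had levels of 3.58, 3.99 and 4.03 in Myocyte 1, 2 and 3. miR-1, which in mice represses the transcription factor Hand2 and, in rodent hearts, the channel genes Kcnj2 and Gja1, had levels of 2.85, 2.67 and 2.71 with the rat assay. miR-133a was above miR-1 in each set, by 0.74, 1.32 and 1.32 log2 units, and the mean difference was 1.03 ± 0.41 (SD, n = 2). The share of miR-1 was 23.2%, 17.6% and 17.6% in the sets, or 20.4% ± 3.97 (SD, n = 2). miR-1 thus stood higher in Myocyte 1 and miR-133a stood lower there, and their summed share hardly moved.

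The next places, 3 and 4, went to members of the miR-30 family, which in the rodent heart targets connective tissue growth factor. miR-30c had levels of 1.42, 1.78 and 1.84 and a share of 9.11% ± 0.66 (SD, n = 2). miR-30b had levels of 1.20, 1.44 and 1.49 and a share of 7.47% ± 0.089 (SD, n = 2). The gap between them was 0.22, 0.34 and 0.35 log2 units in the sets, with miR-30c higher in each. Place 5 went to miR-24, a miRNA that in rodents curbs the apoptosis factor Bim in cardiomyocytes, with levels of 0.28, 0.51 and 0.53 and a share of 3.93%. These 5 were the miRNAs above U6, and the same 5 led on both cards, in the same order.

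Places 6 to 10 were taken by miR-145, miR-29a, miR-133b, miR-191 and miR-30a. miR-145, best known as a miRNA of smooth muscle differentiation, had levels of -0.21, -0.43 and -0.41 and a share of 2.41% ± 0.528 (SD, n = 2). miR-29a, a repressor of collagen and other matrix genes, had levels of -0.85, -0.65 and -0.58 and held 1.79%. miR-133b, the partner of miR-206 on chromosome 9, had levels of -1.10, -0.68 and -0.76. It stayed 4.70 ± 0.04 log2 units (SD, n = 2) below miR-133a, or 26.1-fold. The mature sequences differ only in the last base. Whether the assays of such near-identical miRNAs also read each other's sequence was not tested. miR-191, a widely expressed miRNA, had levels of -1.50, -1.29 and -1.26, and miR-30a had levels of -1.92, -1.57 and -1.50. Of the 10 highest, 9 were the same on both cards. On Myocyte 1 the mouse assay of miR-1 took the place that miR-30a held on Myocyte 2 and 3.

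Places 11 to 20 lay between -1.77 and -3.53 in mean level and held 4.97% of the sum together. They were the mouse assay of miR-1, miR-26a, miR-30e, let-7e, miR-125b-5p, miR-19b, miR-143, miR-29c, miR-328 and miR-27b. miR-26a, which targets the methyltransferase Ezh2, had levels of -2.15, -1.76 and -1.74. let-7e, of the family that marks differentiated cells, had levels of -2.55, -2.31 and -2.28 and was the highest let-7. miR-125b-5p, the mammalian counterpart of the worm timing RNA lin-4, had levels of -2.64, -2.70 and -2.67. miR-328, a miRNA reported to act on the L-type calcium channel of the atrium, had levels of -3.58, -3.31 and -3.30. Of the 19 gaps between neighbours among the 20 highest, 12 were larger than the SD of both neighbours, against 27 of 195 over the whole ranking. That SD includes any shift common to a card, which cancels in a gap. The count therefore does not show how far the exact order was resolved.

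The labelled cell type was set beside the miRNAs of striated muscle, 8 assays of which were on the card. All 8 were members, against 52.3% of all 375 assays. Membership alone says little about cell type, since 3 of 4 neuronal and 3 of 5 epithelial assays were members too. The 8 striated muscle assays held 64.7%, 64.3% and 64.1% of the sum in Myocyte 1, 2 and 3. Beside the miR-1 and miR-133 assays, the list holds the miRNAs encoded in myosin genes, which were far lower. miR-499, which lies in the slow myosin gene Myh7b on the same strand, had levels of -4.57, -4.61 and -4.55 and stood at rank 33. miR-208, named miR-208a in the rat and lying in Myh6, the gene of the fast adult cardiac myosin, had levels of -7.72, -7.46 and -7.42 and stood at rank 71. miR-208b, which lies in Myh7, the gene of the fetal and slow cardiac myosin of rodents, had levels of -11.89, -11.68 and -11.66 and stood at rank 123. The 3 sets agreed on this order, and their levels for the different miRNAs did not overlap.

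miR-208 was 4.17, 4.22 and 4.24 log2 units above miR-208b in the sets, or 18.4-fold, and miR-499 was 3.01 ± 0.21 log2 units above miR-208 (SD, n = 2). miR-133a in turn was 8.37 ± 0.31 log2 units above miR-499 (SD, n = 2), or 331-fold. The 3 myosin-encoded miRNAs together held 0.142% of the sum. miR-486, a miRNA of muscle and of red blood cells, was the lowest of the list, with levels of -12.14, -12.39 and -12.45. miR-206, the skeletal muscle relative of miR-1, was not among the assays read.

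Other cell types of the heart were read through lists of their typical miRNAs, most of which are made by more than 1 cell type. In RNA from a whole preparation, a few cells of another type and a low level in every cell cannot be told apart. The miR-126 pair, made from the endothelial gene Egfl7, held 0.250% of the sum. miR-126-3p had levels of -3.91, -3.52 and -3.48 and stood at rank 24. Its partner from the other arm of the hairpin, miR-126-5p, had levels of -7.29, -6.98 and -6.90. The smooth muscle pair of miR-143 and miR-145 held 3.13%, 2.39% and 2.37%, most of it miR-145. miR-143 had levels of -3.25, -3.06 and -2.98.

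The list of fibroblasts and stroma held 0.0513% of the sum, with 4 of 5 assays detected. miR-21, a miRNA raised in activated fibroblasts and in many growing cells, was the highest of them, with levels of -5.92, -6.04 and -5.98. miR-199a-3p was at -10.42, miR-31 at -11.75 and miR-214 at -13.15 in mean level, and miR-199a-5p gave no signal. Leukocyte miRNAs held 0.171%, with 4 of 5 assays detected. miR-150, a miRNA of mature lymphocytes, made up 91.9% of that and had levels of -4.30, -4.21 and -4.17. miR-155, a miRNA of activated immune cells, was at -8.27, the myeloid miR-223 at -10.42 and the pan-leukocyte miR-142-3p at -10.52 in mean level. miR-142-5p gave no signal. Most of the share of this list thus came from miR-150, at rank 31, while miR-142-3p and miR-223 lay at ranks 113 and 110. The cell source of miR-150 was not tested.

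The few miRNAs listed here for tissues outside the heart had mean levels of -8.81 or lower, or gave no signal. The liver miRNA miR-122, the neuronal miR-124 and the epithelial miR-200a and miR-429 gave no signal in any set. miR-451, the main miRNA of red blood cells, had levels of -18.25, -19.14 and -19.13 and stood at rank 192. miR-375 of pancreatic islets was at -15.87 in mean level, and the neuronal miR-137 and miR-9 at -15.41 and -12.73. The epithelial miR-141 and miR-200b were at -13.71 and -14.07. The highest of these lists were the neuronal miR-128a and the epithelial miR-200c, at -8.81 each in mean level and at ranks 87 and 88, above the median member. The part of other cells in any of these levels was not tested.

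**Figure D3:**
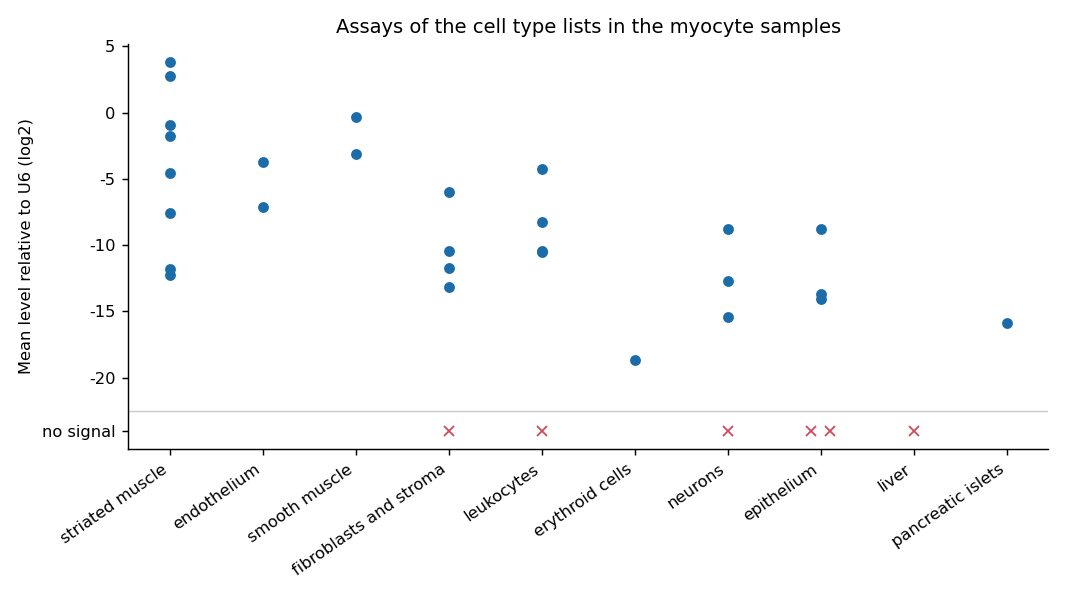
Mean level relative to U6 (log2, vertical axis) of the assays in 10 cell type lists (horizontal axis), as points for assays with signal in all 3 sets and crosses for assays without. All 8 striated muscle assays had signal, up to 3.80, while the neuron, epithelium and islet assays lay at -8.81 or lower.

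Grouped by family, the pool of the myocytes was mostly miR-133, miR-1 and miR-30. The miR-133 family held 43.0% ± 3.89, the 2 miR-1 assays 21.3% ± 4.26 and the 5 miR-30 assays 18.3% ± 0.835 of the sum (SD, n = 2). In the miR-133 family, miR-133a made up 96.3% of the signal. The miR-30 family was spread more evenly, with 49.7% from miR-30c, and its lowest member miR-30d had a mean level of -4.61. miR-24 followed with 3.93%, miR-29 with 2.11% and let-7 with 1.53% ± 0.00086 (SD, n = 2).

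All 8 let-7 assays were members, against 52.3% of all 375 assays. They ran from -2.42 for let-7e to -7.68 for let-7f in mean level. Their relative miR-98 gave a signal in Myocyte 1 only, at a level of -10.56. In the miR-29 family, miR-29a was 2.69 ± 0.14 log2 units above miR-29c and 5.75 ± 0.12 above miR-29b (SD, n = 2). miR-30a and miR-30e, which differ by C13U, were 0.29, 0.35 and 0.36 log2 units apart in the sets, with miR-30a higher. The miR-17 family, linked to the proliferation of cardiomyocytes in mice, had all 6 assays among the members and held 0.502%. The family of miR-15 and miR-16, which in mice curbs the division of cardiomyocytes after birth, also had all 6 assays among the members and held 0.331%, of which 76.6% was miR-16. By sequence, the 160 members matched to a RefSeq entry carried 116 different seeds, and 25 seeds were shared by 2 or more members. The GC content of these mature sequences was unrelated to the level across the 160 miRNAs, with a Spearman rho of -0.0087. These points share the same libraries and are not independent.

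miRNA genes that lie close together on a strand are often cut from a common precursor, so their levels were compared within genomic clusters. A cluster was taken as miRNA genes within 10 kb of the next on the same strand in the RefSeq annotation, with detected miRNAs from at least 2 genes, and 29 clusters held 77 of the members. The range between the highest and the lowest member had a median of 4.01 log2 units over the clusters and exceeded 3 log2 units in 21 of them. It was between 0.21 and 12.27 log2 units. Over all members, the middle 50% of levels spanned 7.75 log2 units. The order of the members within a cluster was the same on both cards in 27 of the 29 clusters. The detected members of a cluster thus often had unequal mature levels by these assays, and their order mostly repeated between the cards. Some ranges span both arms of a hairpin, as does the one of 12.27, or 2 assays of the same miRNA. Such ranges can exceed the range between neighbouring genes.

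**Figure D4:**
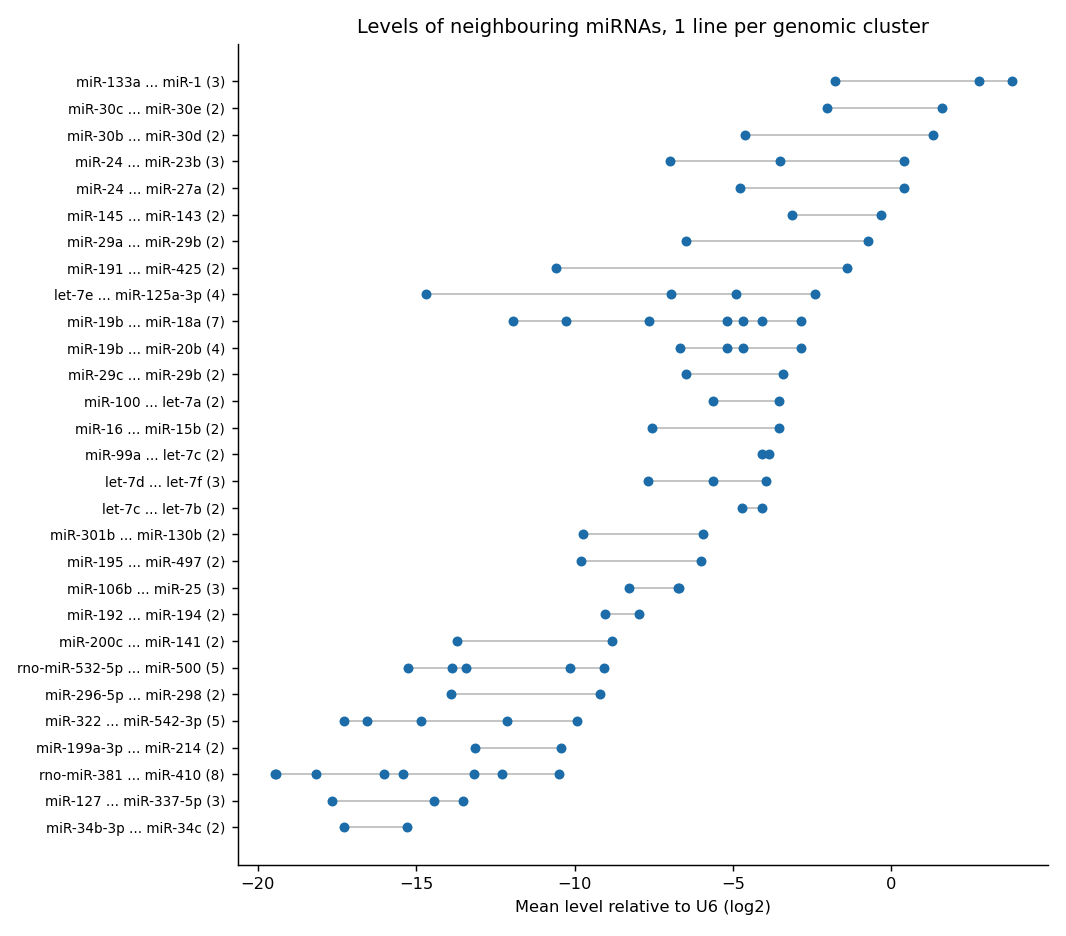
Mean level relative to U6 (log2, horizontal axis) of the detected members of 29 genomic clusters, 1 line per cluster, named by its highest and lowest member with the number of detected assays. The lines span from 0.21 log2 units for miR-99a and let-7c to 12.27 log2 units for the cluster of let-7e.

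The cluster of miR-133a and miR-1 on chromosome 18 was the highest. Its range of 5.57 log2 units came from the mouse assay of miR-1, and by the rat assay the partners were 1.03 log2 units apart. The rat miR-1b gene lies on chromosome 3, and which miR-1 the mouse assay reads is not stated in the sources used here. In the miR-30 clusters, miR-30c was 3.66 log2 units above miR-30e on chromosome 5, and miR-30b was 5.93 above miR-30d on chromosome 7. The annotation gave no strand for the latter pair, which was joined as neighbours. A second miR-30c gene lies on chromosome 9, and the assay cannot tell the genes apart. miR-145 was 3.03, 2.63 and 2.56 log2 units above miR-143, its neighbour on chromosome 18. On chromosome 4, miR-29a was 53.9-fold above miR-29b, and on chromosome 13 miR-29c was 8.38-fold above it, although miR-29b is made from both places.

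miR-24, miR-27 and miR-23 are made from a cluster on chromosome 17 and from another on chromosome 19. miR-24 is common to both. From chromosome 17, miR-27b had levels of -3.69, -3.41 and -3.34 and miR-23b had levels of -7.02, -6.97 and -6.91. From chromosome 19, miR-27a had levels of -4.95, -4.60 and -4.55, while miR-23a gave no signal in any set. miR-27a came up at Ct 19.6, 19.5 and 19.7 in the same sets. Whether miR-23a was missing from the cells or its assay failed was not tested.

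A wide range was seen around miR-191, where miR-425 on the same strand of chromosome 8 lay 9.20 log2 units lower, at levels of -10.71, -10.40 and -10.55. The cluster of let-7e, miR-99b and miR-125a on chromosome 1 spanned 12.27 log2 units. There let-7e led at -2.42, followed by miR-125a-5p at -4.91, miR-99b at -6.94 and the other arm of the same hairpin, miR-125a-3p, at -14.69 in mean level. The miR-17 to miR-92 cluster on chromosome 15, a growth-promoting cluster, had all 7 assays among the members, against 52.3% of all 375 assays. miR-19b led it at -2.85, and miR-20a at -4.10, miR-17 at -4.67 and miR-92a at -5.19 followed. miR-19a was at -7.65, miR-17-3p at -10.27 and miR-18a at -11.95. miR-19b, miR-17 and miR-92a are also encoded on the X chromosome, where miR-20b was at -6.69 and miR-363 gave no signal. Its relative on chromosome 12, within Mcm7, was tighter, with miR-106b at -6.70, miR-93 at -6.74 and miR-25 at -8.29.

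Pairs of let-7 with miR-99 or with another let-7 lay at close levels in some clusters and apart in others. miR-99a and let-7c on chromosome 11 differed by 0.21 log2 units and let-7c and let-7b on chromosome 7 by 0.65. The let-7 cluster on chromosome 17 ran from let-7d at -3.97 over let-7a at -5.62 to let-7f at -7.68. let-7a has another gene beside miR-100 on chromosome 8, where miR-100 was 2.08 log2 units higher, and let-7c is made on both chromosome 7 and chromosome 11. Levels of miRNAs with more than 1 gene are sums over their genes.

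Assays of clusters known from embryonic or imprinted regions mostly gave no signal. Between Dlk1 and Dio3 on chromosome 6, an imprinted region with a large group of miRNA genes, 11 of 49 assays were members, or 22.4%, against 56.7% of the other 326 assays. A further 5 gave a signal on 1 card and 33 gave none. The 11 members held 0.00353% of the sum, and the highest was the rat assay of miR-381, at rank 112 and -10.50 in mean level. The mouse assay of miR-381 gave a signal in Myocyte 1 only, at Ct 34.1, against 25.4 for the rat assay there. Whether silent mouse-named assays of this region missed a rat miRNA was not tested. Next after the rat assay of miR-381 came miR-494 at -12.30 and miR-667 at -13.19. miR-127, which is antisense to Rtl1 in the mouse, was at -13.54, and miR-434-3p at -14.43 came from the same cluster. miR-411 was at -15.41, miR-376c at -16.02, miR-337-5p at -17.67, miR-379 at -18.17, miR-369-5p at -19.43 and miR-410 at -19.47. Of 12 assays of the miR-290 and miR-302 family, miRNAs of pluripotent cells, 2 were members, against 52.3% of all assays. These were miR-367 at -17.80 and miR-302a at -20.15.

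Of 56 assays whose only matched genes lie on the X chromosome, 23 were members, or 41.1%, against 52.3% of all 375 assays. The highest of these members was miR-652 at -6.24. In the cluster of miR-532 the rat assay of miR-532-5p led at -9.08, followed by miR-532-3p at -10.15 and miR-188-5p at -13.44, down to miR-500 at -15.26. In the cluster of miR-322, a relative of miR-16, that miRNA led at -9.92 and miR-542-3p was lowest at -17.28, while miR-503 and miR-351 gave no signal. miR-222 was at -10.45, -10.18 and -10.12, and its neighbour miR-221 gave no signal in any set. Of the 185 members matched to a rat gene, 78 lay within a protein-coding gene on the same strand and 85 outside any protein-coding gene, with median levels of -8.75 and -10.30.

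Both arms of a hairpin were detected in 13 pairs of assays, and in these the arms differed by 0.55 to 15.49 log2 units, with a median of 3.41. The widest gap was that of miR-125b, whose 5p arm was 16.05 log2 units above the 3p arm in Myocyte 1 and 14.92 above it in Myocyte 2 and 3. The 5p arm is made from a second gene as well. The arms of miR-125a differed by 9.78, those of miR-331 by 7.93, with the 3p arm higher, and those of miR-17 by 5.60. The arms of miR-126 differed by 3.41. Those of miR-340 and of miR-339 were close, at 0.55 and 0.56.

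For 16 names the card holds a mouse and a rat assay, which gives a view of how far an assay sets the level. In 3 pairs both were members, in 4 only the rat assay was, in none only the mouse assay, and in 9 neither was. The rat assay of miR-1 was above the mouse assay by 4.40, 4.59 and 4.76 log2 units in the sets, or 23.2-fold. The rat has a miR-1 and a miR-1b that differ by G17A, and which of them either assay reads is not stated in the sources used here. The rat assay was 2.33 log2 units higher for miR-345-3p and 0.71 lower for miR-224. miR-339-3p and miR-505 gave no signal with the mouse assay in any set. With the rat assay miR-339-3p came up at Ct 23.0, 23.9 and 24.2, and miR-505 at 26.6, 26.6 and 26.7. Over the whole card, 54.0% of the 335 mouse assays and 37.5% of the 40 rat assays were members.

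Myocyte 1 and the mean of Myocyte 2 and 3 ranked the 196 miRNAs nearly alike, with a Pearson r of 0.995 and a Spearman rho of 0.997 across miRNAs, which share their cards and are not independent. The difference in level had a median of -0.20 and an SD of 0.51 log2 units, and 142 miRNAs were lower and 54 higher in Myocyte 1. The difference exceeded 1 log2 unit for 10 miRNAs, 4 higher and 6 lower in Myocyte 1. Between Myocyte 2 and Myocyte 3 the SD of the difference was 0.077 and the largest difference 0.31, so the spread between the cards was 6.58 times that between the readings. Myocyte 2 and 3 were joined because their values agreed closely, so this ratio is not independent of that choice.

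**Figure D5:**
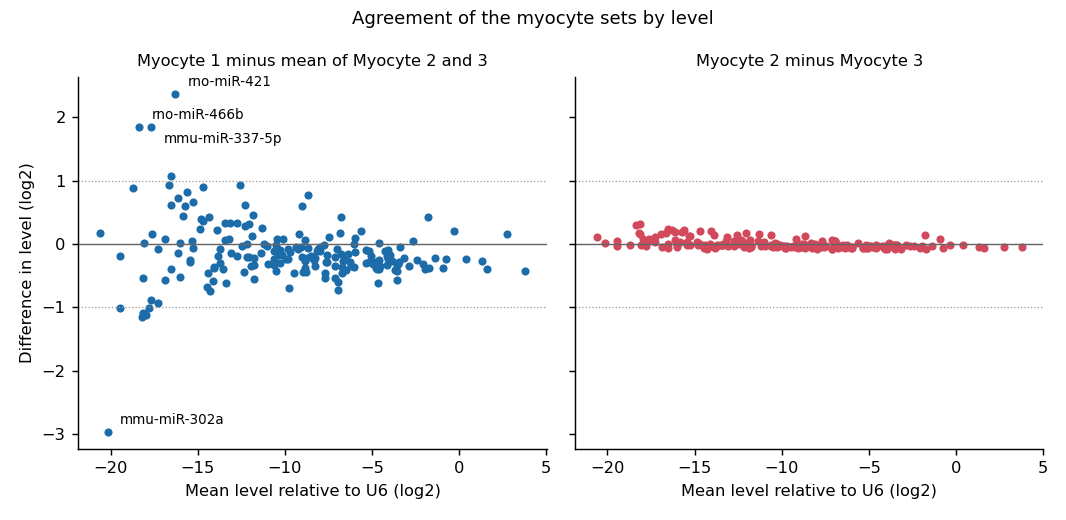
Difference in level (log2, vertical axis) between Myocyte 1 and the mean of Myocyte 2 and 3 (left) and between Myocyte 2 and Myocyte 3 (right), against the mean level relative to U6 (log2, horizontal axis), with 1 point per miRNA assay. Dotted lines mark a difference of 1 log2 unit, which 10 miRNAs exceeded on the left and none on the right.

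The agreement fell with the level. The SD of the difference between the cards was 0.23 for the 5 miRNAs above U6, 0.20 for the 36 up to 5 log2 units below it, 0.27 for the next 62, 0.36 for the next 57 and 1.00 for the 36 that were more than 15 units below U6. All 10 miRNAs with a difference of over 1 log2 unit were among these 36. The median difference also moved, from -0.29 in the second of these bins to -0.02 in the last. For the miRNAs above U6 and up to 5 log2 units below it, the median difference was larger in size than the scatter around it. The source of this offset was not tested. The SD of the difference does not change with the normalizer.

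The largest differences lay in weak miRNAs. miR-302a, at levels of -21.63, -18.66 and -18.68, was the furthest apart, with a difference of -2.96. It was followed by miR-379, miR-216b, miR-125b-3p and miR-367, with differences of -1.15, -1.12, -1.08 and -1.02. In the other direction the rat assay of miR-421 had levels of -15.10, -17.35 and -17.57, a difference of 2.36. The rat assay of miR-466b and miR-337-5p were both higher by 1.84 in Myocyte 1, miR-449a by 1.06 and miR-330 by 0.93. The 5 lowest members were miR-451, miR-369-5p, miR-410, miR-302a and miR-205, which is otherwise an epithelial miRNA. miR-205 had levels of -20.54, -20.66 and -20.76, so a late signal was not always a variable one.

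Signal on a single card was also mostly late. In Myocyte 1 only, 16 assays had a signal, and in Myocyte 2 and 3 only, 7 had. The earliest in Myocyte 1 only were miR-98 at Ct 25.2, the mouse assay of miR-532-5p at 28.7, miR-685 at 29.0, miR-297c at 30.4 and miR-197 at 30.7. In Myocyte 2 and 3 only, the earliest was miR-582-5p at Ct 33.3 and 33.7, followed by miR-136 at 33.8 and 34.0, miR-217 at 34.6 and 35.1, miR-292-3p at 35.3 and 35.6, and miR-376b at 37.0 and 37.6. All 43 assays that came up before cycle 20 in Myocyte 1 and all 63 between cycles 20 and 25 also had a signal in Myocyte 2 and 3. Between cycles 32 and 35, 10 of 23 had none there. miR-98 stood out among the assays seen once, since of the 62 assays between cycles 25 and 30 in Myocyte 1 only 3 were silent in Myocyte 2 and 3.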

How the data were processed

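RNA of the myocyte samples was extracted by the authors with the mirVana Paris kit and measured on TaqMan rodent miRNA cards, with a pre-amplification step, and the Ct of every well was deposited. The threshold and baseline settings were not given in the sources used here. A Ct of 40 or an undetermined well was read as no signal. Levels were the mean Ct of the 4 U6 wells minus the Ct. Shares were taken of 2 to the power of the level, summed over the 196 detected miRNA assays. Values of Myocyte 2 and 3 were averaged first, so that n = 2. The authors' table of U6-adjusted values was not used.

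Assays were matched by name to the RefSeq annotation of the rat (GRCr8), which gave a gene for 321 of 375 assays. No test was run, since no other group entered. The members and lists were chosen with earlier results of these data known. Named were the 20 highest and the 5 lowest miRNAs, all assays of the cell type lists, members of clusters with a top miRNA or with at least 3 detected miRNAs (some by their range), and the 5 largest differences and earliest single-card signals in each direction. Assays named beside family, hairpin arm or species comparisons were picked with their values known. The computation was tested on simulated Ct values and used Python 3.11.15, pandas 2.3.3 and numpy 2.4.6.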

Additional observations from a re-analysis of the deposited data

How the results depend on the processing

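The 2 samples limit every spread given here, whose biological part is unknown, and levels of different assays rest on equal amplification. With an amplification of 1.9 per cycle in place of 2, the share of the highest miRNA was 37.4%, that of the 5 highest 78.0% and that of the 10 highest 86.9%. With 1.8 per cycle these were 33.0%, 72.4% and 82.5%, and 20 miRNAs were needed for 90% of the sum. With mouse and rat assays of a name counted once, the 5 and the 10 highest held 83.1% and 91.0%. miR-133a and the rat assay of miR-1 stayed first and second under every setting run. A change of normalizer, amplification, Ct limit or cluster distance could not alter that order. Only leaving out sets or counting them separately could have done so.

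With a Ct limit of 32, 175 miRNAs were detected, the median level was -8.81, the spread between the cards 0.32 log2 units, and 0 miRNAs were over 1 log2 unit apart, since late signals were left out by construction. The median level was -4.20 relative to the other endogenous controls (snoRNA135, U87 and Y1), 0.12 relative to the mean of all detected miRNAs and -24.46 with no normalizer. Leaving out each myocyte set in turn, the number detected was 196 to 203, the median level -9.75 to -9.60, the share of the highest miRNA 41.4% to 44.1%, of the 5 highest 82.3% to 82.7% and of the 10 highest 90.2% to 90.3%, and the median range within clusters 4.01 to 4.43, the last without Myocyte 1. The spread between the cards was then 0.50 to 0.52, with 8 to 13 miRNAs over 1 log2 unit apart. Without Myocyte 1 neither can be had. Of 75 values under other settings, 59 moved by less than the spread between the samples or, for counts and spreads, by less than 1.5 times. Some of the 59 could not move by construction, such as the spread between the cards under another normalizer. The count is therefore no measure of stability. No paired analysis was possible because no groups were compared.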
